A study of Mus musculus with 2 samples.

Results

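The aminoacyl-tRNA synthetases are the enzymes that load each tRNA with its amino acid. They were chosen by gene symbol, as protein-coding genes named with the letter of an amino acid followed by "ars" (with the suffixes 1, 2, a or b where present) together with Eprs, Ears2 and Pars2. No measured value enters this rule, although it was chosen with earlier results of these data known. The rule found 37 genes among 21474 protein-coding genes and 43346 gene entries in all, 20 of them cytosolic and 17, with names ending in 2, mitochondrial.

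A synthetase activates an amino acid with ATP and transfers it to the end of the matching tRNA, so the ribosome depends on it for the accuracy of the genetic code. Mitochondria translate their own small genome and import a separate set of synthetases made from nuclear genes. Glycine and lysine are the textbook exceptions, with Gars and Kars serving both compartments from the same gene. Qars serves the cytosol alone, because in mitochondria glutaminyl-tRNA is made by Ears2 and an amidotransferase. The enzymes fall into structural classes I and II, and several cytosolic ones sit together on scaffold proteins in the multi-synthetase complex. Many cytosolic synthetase genes are known targets of ATF4, the transcription factor induced when the translation factor eIF2alpha is phosphorylated, which in erythroid cells happens when heme is short.

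Poly(A) RNA was sequenced in paired-end mode from G1E-ER4, an immortalized mouse erythroid line without its own functional Gata1 that carries GATA1 fused to the ligand-binding part of the estrogen receptor. All cells had received 10 nM 17beta-estradiol, which switches the fusion protein on, for 30 h. The only group held 2 libraries labelled as biological replicates 1 and 2, with 73681318 and 56056404 expected counts, and no untreated cells were analysed here. The values therefore describe levels in this state and not an effect of estradiol, and any p-value measures the difference between these libraries only. In bulk RNA, fewer cells of a type and less RNA per cell cannot be told apart. The erythroid label was met: all 9 erythroid marker genes had at least 10 TPM in both libraries, among them Epor at 78.2 and 78.5 TPM and Hbb-bs at 154254 and 133818 TPM. Gata1 is among the 9, and its reads were not divided between the line's own gene and the introduced fusion. TPM expresses abundance per unit of transcript length as a share of the library. The 6 myeloid markers summed to 0.84 TPM in replicate 1 and 11.2 TPM in replicate 2, and Csf1r and Ly6g had at most 6 counts in either library.

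Sequence elements upstream of the genes are shown first, because 5 cytosolic members share one. RefSeq promoter windows (GRCm38.p6, 250 bases before to 50 after the start) were matched for 26 of the 37 members. The C/EBP-ATF response element to which ATF4 binds, searched as TGATGNAA on both strands, was in 5 of these 26 windows (19.2%) and in 3.97% of all 32851 windows. The 5 genes were Aars, Gars, Iars, Tars and Yars. None of the mitochondrial members with a matched window held the letters, and members without a window were not searched. In Iars and Yars the match lay past the annotated start. The matches of Gars and Tars are printed with the match in capitals, which in both genes reads on the opposite strand.
Gars (chr6:55037961-55037988, plus strand): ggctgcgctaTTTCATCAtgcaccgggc
Tars (chr15:11399659-11399683, minus strand): aggagtcccgTTGCATCAgctggtt
The match began 30 bases before the RefSeq start in Gars and 15 before it in Tars. The E-box CACGTG, the letters bound by MYC with MAX, was in 5 of 26 windows (19.2%) and in 7.15% of all windows. Its 5 genes were Aars, Ears2, Farsb, Iars and Tars, so Aars, Iars and Tars held both elements. In GENCODE M21, which gave the gene positions, Aars begins at chr8:111033144. The Aars matches to both elements therefore lie inside that gene model. The E-boxes that lay upstream of the RefSeq start are printed with the E-box in capitals.
Aars (chr8:111033686-111033711, plus strand): tcaaccctgtCACGTGacactccatg
Farsb (chr1:78488921-78488946, minus strand): agacaggcatCACGTGagacagccca
Iars (chr13:49682051-49682076, plus strand): ccaatcgccaCACGTGttgtttgtag
For GATA1, the letters AGATAA on either strand were in 3 of 26 windows (11.5%; Aars2, Farsb and Sars2) and in 11.2% of all windows. TGATAA was in 0 of 26 and in 9.05% of all. A match is a run of letters and not a measured binding site, and its absence covers these windows only.

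The set was expressed broadly and unevenly. Of the 37 members, 33 had at least 1 TPM in both libraries, beside 35.3% of all protein-coding genes, and 20 had at least 10 TPM, beside 20.4%. The summed level was 1291 TPM in replicate 1 and 1162 TPM in replicate 2. A few genes carried most of it: Vars, Dars, Sars and Farsa together made up 60.0% of the members' TPM in replicate 1 and 59.9% in replicate 2.

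Vars, the valine enzyme (ENSMUSG00000007029.12, mm10 chr17:35000987-35016322, plus strand), reached 362 and 371 TPM in replicates 1 and 2 (366 ± 6.31, mean ± SD, n = 2). It stood above 98.7% of all protein-coding genes and alone made up 28.0% and 31.9% of the members' TPM. Dars, the aspartate enzyme (chr1:128363707-128417368, minus strand), followed with 176 and 121 TPM. Sars, for serine, had 144 and 117 TPM, so the ranges of Dars and Sars overlapped. Farsa, the catalytic subunit for phenylalanine, had 92.3 and 88.0 TPM and lay below all 3 in both libraries. Its partner subunit Farsb had 5.56 and 6.13 TPM, and the enzyme contains both subunits.

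A middle group of cytosolic enzymes lay close together. Tars (threonine) had 46.4 and 41.0 TPM, Hars (histidine) 44.0 and 40.4, Mars (methionine) 48.3 and 35.7, Aars (alanine) 43.7 and 39.5, Gars (glycine) 37.3 and 43.4, and Yars (tyrosine) 37.9 and 36.9. Neighbours within this group did not differ beyond the spread of the libraries. Below them, Wars (tryptophan) had 25.2 and 25.4 TPM and Kars (lysine) 27.2 and 22.6 TPM. Qars (glutamine) had 21.6 and 11.4 TPM, the widest absolute gap among members under 100 TPM apart from Mars. Nars (asparagine) had 15.6 and 14.4 TPM and Cars (cysteine) 11.9 and 10.9 TPM. The lowest cytosolic members were Eprs (glutamate and proline on the same protein) at 4.06 and 3.39 TPM, Iars (isoleucine) at 3.46 and 2.37, Rars (arginine) at 2.70 and 1.76 and Lars (leucine) at 1.49 and 1.17. The 20 cytosolic members thus spanned from 1.33 to 366 TPM in their means, and their median was 31.4 TPM.

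The 17 mitochondrial members had a median of 4.94 TPM, and none reached 100 TPM. By gene TPM, Vars2 had 27.4 and 25.1, Sars2 20.8 and 19.4 and Hars2 18.2 and 18.8. On protein-coding transcripts alone Sars2 kept 20.8 and 19.4 TPM, while Vars2 had 3.45 and 3.16 TPM and Hars2 0.77 and 0.92 TPM. Fars2 had 14.0 and 12.5 TPM, Aars2 12.5 and 12.2, Lars2 12.8 and 8.56, and Yars2 9.32 and 8.79. Tars2, Nars2, Iars2 and Cars2 lay between 3.51 and 5.83 TPM in either library. Ears2 (1.56 and 1.11 TPM) was lower. The 4 members that did not reach 1 TPM in both libraries were mitochondrial: Pars2 at 1.11 and 0.76 TPM, Mars2 at 0.87 and 0.82, Rars2 at 0.90 and 0.45, and Wars2 at 0.43 and 0.44. Rars2 rested on 69 and 32 counts and Wars2 on 135 and 99. Mars2 had 725 and 521 counts, spread over a gene model of 11294 bases of which 1758 are coding.

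**Figure D1:**
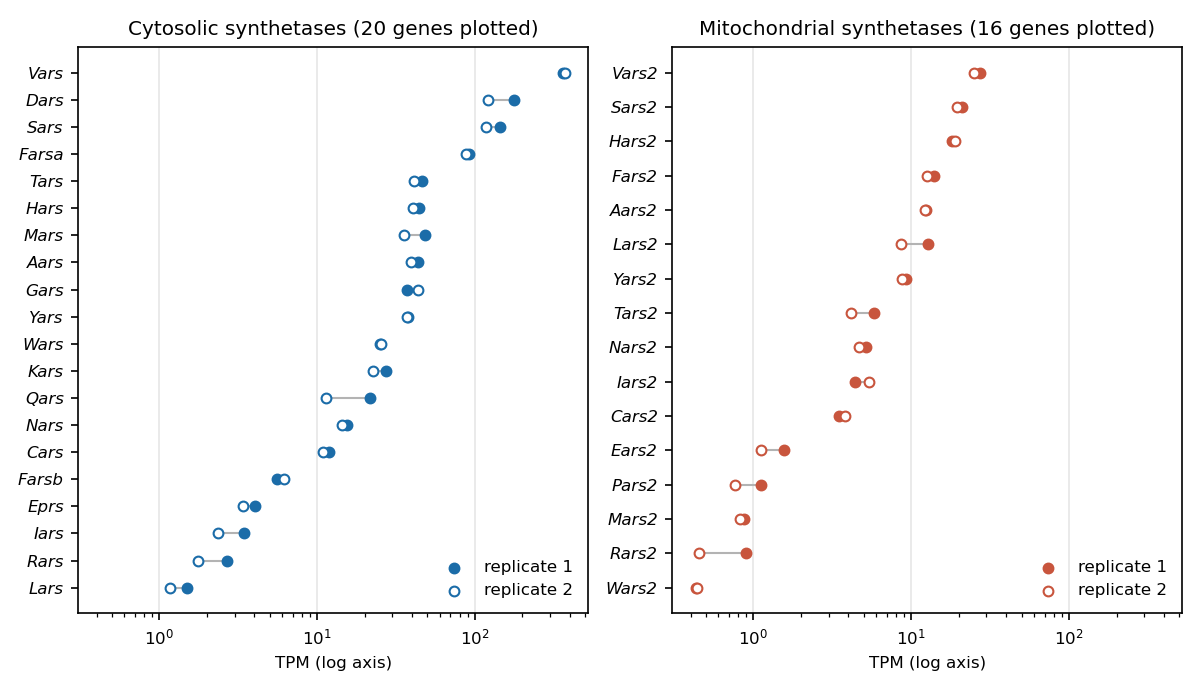
Level of each synthetase gene in TPM on a log axis, with filled points for replicate 1, open points for replicate 2 and a grey line between them. The left panel holds the 20 cytosolic members, led by Vars at 362 and 371 TPM, and the right panel all but 1 of the mitochondrial members, whose highest value is 27.4 TPM.

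For the same amino acid, the cytosolic enzyme had the higher level in 15 of 17 pairs in both libraries, and in 12 pairs the difference was past 2-fold in both. Pairs were compared within each library on log2(TPM + 1), a scale that understates the difference of low genes. The median difference over pairs was 1.52 in replicate 1 and 1.44 in replicate 2 (1.48 ± 0.05, n = 2). With 2 libraries an exact sign-flip test cannot go below p = 0.5, so no test was run and the differences are descriptions. The summed gene TPM of all cytosolic members was 8.19 times the mitochondrial sum in replicate 1 and 8.00 times in replicate 2. These sums cover 20 cytosolic and 17 mitochondrial genes and include Gars, Kars and Qars, which have no pair.

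In the methionine pair Mars exceeded Mars2 by 4.53 ± 0.27 on the log2 scale, in the tryptophan pair the difference was 4.20 ± 0.003 and in the valine pair 3.75 ± 0.11. Threonine (2.91 ± 0.16) and serine (2.63 ± 0.14) also lay past 2. The order of these pairs changed with the processing: methionine had 3.17 after GC adjustment, 3.23 over the longest coding transcript and 1.00 on protein-coding transcripts, where tryptophan had 3.55, 4.51 and 4.25. Tyrosine, alanine, asparagine, cysteine, proline and histidine lay between 1.15 and 1.93. The glutamate (1.02 ± 0.05), arginine (0.95 ± 0.02) and phenylalanine (0.81 ± 0.12) pairs favoured the cytosol without passing 2-fold in both libraries. For phenylalanine the mean log level of Farsa and Farsb was set against Fars2. Short models led Fars2 and Farsb. Fars2-202, with 657 coding bases, took 84.9% and 83.6% of TPM, while Fars2-201, with 1353, had 2.11 and 2.05 TPM. Farsb-203, with 712 coding bases against 1767 in Farsb-201, took 65.3% and 76.4%. Eprs served as the cytosolic partner of both Ears2 and Pars2, so these pairs share a gene.

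Leucine and isoleucine ran the other way. Lars2 (chr9:123366927-123462666, plus strand) had 12.8 and 8.56 TPM from 3564 and 1816 counts, while Lars had 1.49 and 1.17 TPM from 411 and 246 counts. The mitochondrial gene was higher in both libraries, by a log2 difference of −2.31 ± 0.24 for cytosol minus mitochondria on the log2(TPM + 1) scale. By gene TPM, Iars2 (4.43 and 5.40 TPM) exceeded Iars (3.46 and 2.37 TPM) by a smaller margin, −0.60 ± 0.45. The Iars2 level rested largely on shorter models. Iars2-202, with 1680 coding bases, took 50.1% and 78.8% of its TPM. Iars2-201, with 3036 coding bases, had 0.52 and 0.63 TPM, below the 3.38 and 2.33 TPM of Iars-206, with 3786 coding bases. The mean isoleucine difference became 0.14 when gene counts were divided by the length of the longest protein-coding transcript, and the libraries disagreed. Rescaled to the sum of TPM, Iars was higher than Iars2 in replicate 1 (4.78 and 3.27) and lower in replicate 2 (3.33 and 3.85). The leucine difference became −2.47 with this division. Adjusting TPM for the GC content of the transcripts left both signs in place, at −1.91 for leucine and −0.55 for isoleucine, and gave 15 pairs with the cytosolic gene higher.

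**Figure D2:**
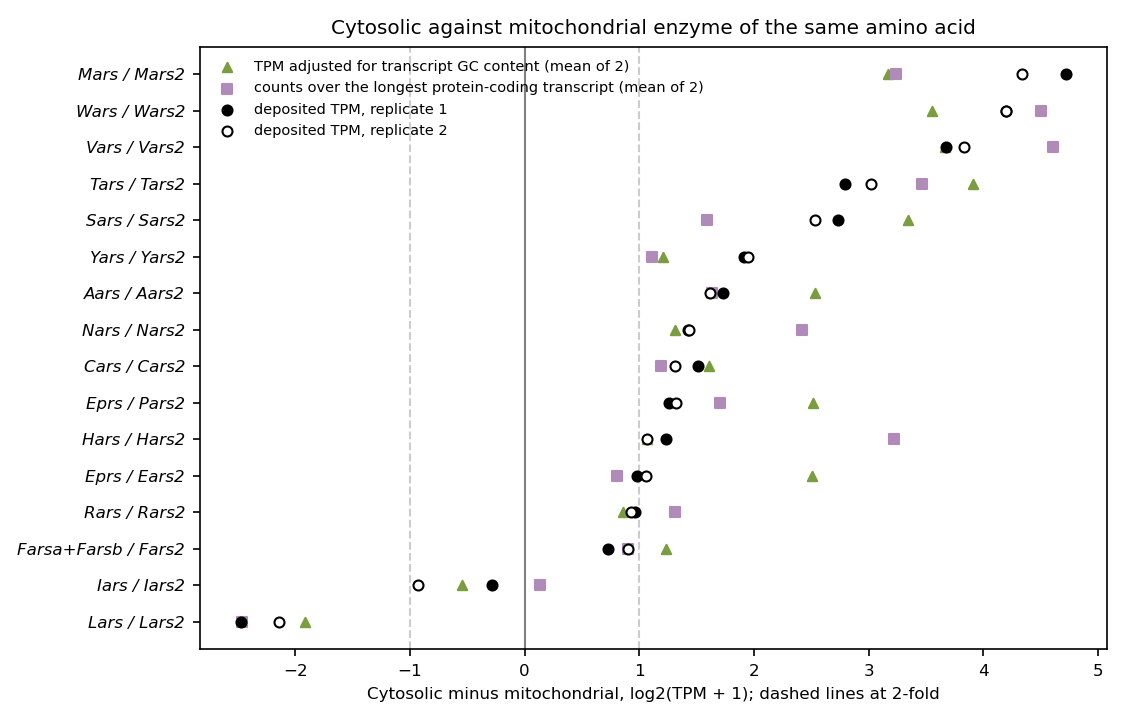
Difference between the cytosolic and the mitochondrial enzyme of the same amino acid for all but 1 of the pairs, in log2(TPM + 1), with filled and open circles for the 2 libraries and dashed lines at 2-fold. Triangles give the mean after GC adjustment and squares the mean with counts over the longest protein-coding transcript; only the leucine and isoleucine circles lie below 0, and the isoleucine square lies at 0.14.

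Glycine and lysine have no separate mitochondrial gene. Gars was listed with 1 transcript, so the tables do not separate a mitochondrial form. For Kars (chr8:111993443-112011323, minus strand) they do. Kars-201, with 1785 coding bases, held 92.6% of the gene's TPM in replicate 1 and 90.4% in replicate 2. Kars-202, with 1872 coding bases, held 7.14% and 9.63%, at 1.94 and 2.17 TPM from 289 and 247 counts. Kars-202 contains an additional exon with its own start codon, the known arrangement by which the mitochondrial form gains a targeting peptide. The 146 bases that are coding only in Kars-202 are printed from the GENCODE M21 transcript, with the start codon in capitals.
Kars-202 (mm10 chr8:112008207-112008352, minus strand): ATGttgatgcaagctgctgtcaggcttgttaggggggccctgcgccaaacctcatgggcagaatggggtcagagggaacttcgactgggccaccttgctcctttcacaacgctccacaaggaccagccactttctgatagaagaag
At about 2 TPM, Kars-202 lay within the wide range of the mitochondrial members, 0.43 to 27.4 TPM. That sets a transcript level against gene levels, some of which include retained-intron transcripts (below). For the glutamine route, Ears2 was low (above), and of the amidotransferase subunits Gatc had 20.1 and 19.3 TPM while Gatb had 0.96 and 0.57 TPM and Qrsl1, the catalytic subunit, 0.39 and 0.18 TPM.

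The gene levels of several members rested on transcripts that encode no full enzyme. Among 24 members with at least 2 listed transcripts and 1 TPM, the transcript with the largest share was not annotated as protein-coding in 7 in replicate 1 (29.2%) and 8 in replicate 2 (33.3%). Over all 5714 genes meeting the same conditions the share was 28.1% in both libraries. For 36 of 37 members the same transcript led in both libraries, and the exception was Ears2. Mars was led by Mars-204, a retained-intron transcript of 467 bases, with 77.2% and 71.8% of TPM. Its protein-coding transcripts summed to 2.40 and 2.99 TPM, against 48.3 and 35.7 TPM for the gene. Mars also overlaps the stress gene Ddit3 by 68 bases on the opposite strand, and the available labels and headers name no strand setting.

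Other members followed the same form. Retained-intron transcripts led Yars (Yars-202, 85.2% and 90.2%), Hars2 (Hars2-205, 95.3% and 95.1%), Yars2 (Yars2-205, 96.7% and 98.8%), Vars2 (Vars2-202, 68.0% and 69.3%) and Qars (Qars-212, 55.9% and 34.7%). Protein-coding transcripts alone gave 5.45 and 3.37 TPM for Yars and 0.31 and 0.11 for Yars2. Restricted in this way, 15 members had at least 10 TPM, and the cytosolic gene was still higher in 15 of 17 pairs. The histidine difference grew from 1.15 to 4.55 and the valine difference from 3.75 to 6.24, while the methionine difference shrank from 4.53 to 1.00. Hars and Hars2 lie head to head and their 5′ ends overlap by 198 bases on opposite strands.

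The leaders of the whole set also depended on short models. Dars was led by Dars-202, a transcript of 645 bases with 261 coding bases, which took 95.7% and 96.3% of TPM and 84.5% and 86.1% of the gene's counts. The full-length Dars-201, with 1503 coding bases, had 7.48 and 4.43 TPM. In Vars, Vars-213 of 819 bases took 45.2% and 48.4% of TPM with 14.6% and 15.8% of counts. The full-length Vars-201 took 42.3% and 40.3% of TPM with 81.7% and 80.6% of counts, at 153 and 150 TPM. Vars remained the highest member, at 264 and 265, when gene counts were divided by the length of the longest coding transcript and rescaled to the sum of TPM. Farsa came next on that scale with 131 and 126, then Sars with 93.6 and 82.2, and Dars had 68.2 and 45.5.

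**Figure D3:**
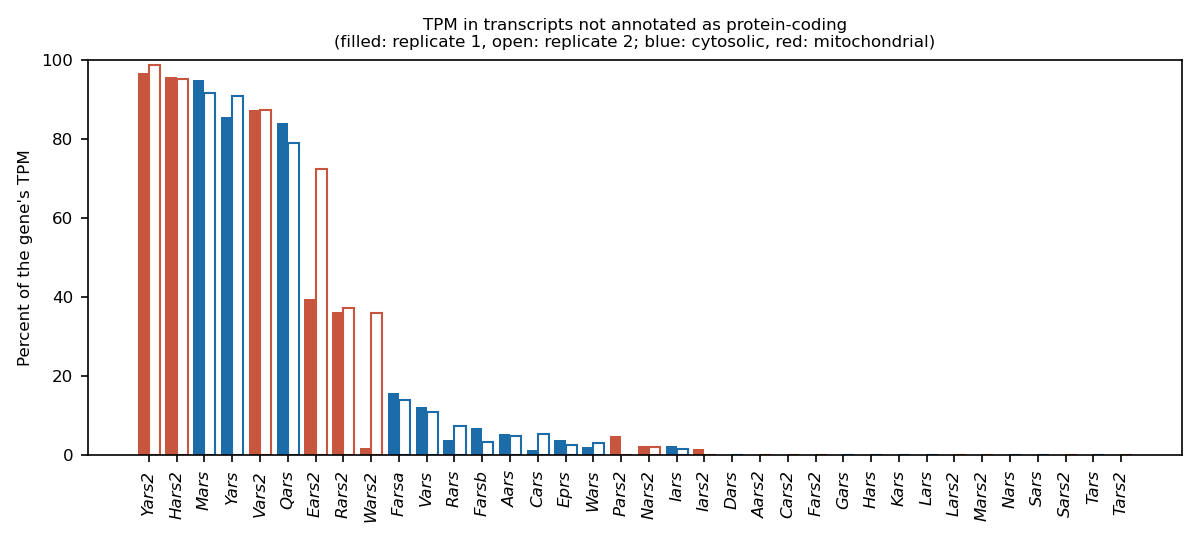
Percent of each gene's TPM that falls in transcripts not annotated as protein-coding, with filled bars for replicate 1 and open bars for replicate 2, blue for cytosolic and red for mitochondrial members. Yars2, Hars2, Mars, Yars, Vars2 and Qars stand between 79.1% and 98.8% in both libraries, while all others plotted except Ears2, Rars2 and Wars2 lie under 16%.

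Levels also differed by class and partnership. Among cytosolic members the median was 16.5 TPM for the 9 class I enzymes and 41.9 TPM for the 10 class II enzymes. Among mitochondrial members it was 3.65 TPM for class I (9 genes) and 8.67 TPM for class II (8 genes). Eprs belongs to both classes and entered neither median. The 8 enzymes of the multi-synthetase complex (Dars, Eprs, Iars, Kars, Lars, Mars, Qars and Rars) had a median of 10.1 TPM and ranged from 1.33 to 148 TPM. The 12 cytosolic enzymes outside the complex had a median of 41.0 TPM. Class and complex overlap: Iars, Lars, Mars, Qars and Rars of the complex are class I, and Dars and Kars class II. The medians therefore do not separate class from complex membership. The 12 cytosolic members listed as ATF4 targets in textbooks had a median of 31.4 TPM, close to the 33.5 TPM of the other 8. All these medians rest on gene TPM, and none is given on protein-coding transcripts. On those transcripts alone Mars had 2.40 and 2.99 TPM, Qars 3.47 and 2.37, and Yars 5.45 and 3.37. These enzymes are class I, and Mars and Qars belong to the complex. Among mitochondrial members Vars2 and Yars2 (class I) and Hars2 (class II) were also lower on them. None of the medians was tested, and the genes share the same 2 libraries.

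Level was loosely related to base composition. Across the 37 members, log2(TPM + 1) and the GC content of the transcripts had a Pearson correlation of 0.36 (Spearman 0.30). The Pearson correlation was 0.55 over the 20 cytosolic members (Spearman 0.40) and 0.48 over the 17 mitochondrial members (Spearman 0.48). Over 7559 expressed protein-coding genes both were 0.31. These correlations are across genes of the same libraries and serve as description. Median GC content was 51.0% for cytosolic and 51.2% for mitochondrial members.

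**Figure D4:**
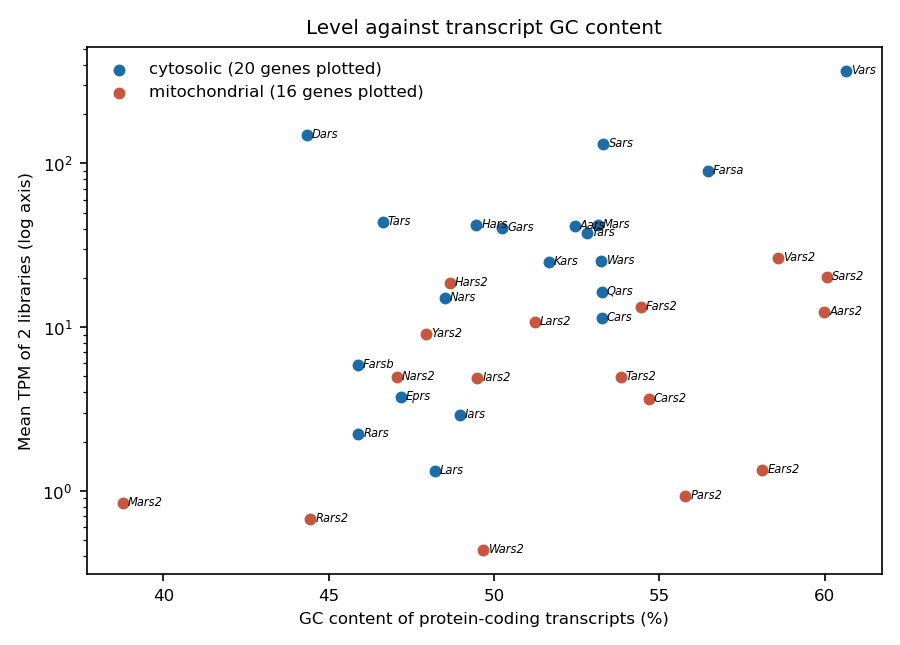
Mean TPM of the 2 libraries on a log axis against the mean GC content of each gene's transcripts in percent, blue for cytosolic and red for mitochondrial members. Vars lies at the upper right with 60.6% GC and Mars2 at the lower left with 38.8%, while Dars has a high level at 44.3%.

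The libraries were then compared gene by gene with an exact two-sided binomial test on rounded expected counts after TMM scaling, adjusted by Benjamini-Hochberg over 10445 genes. This test knows counting error only, and it called 30.0% of genes higher and 29.2% lower in replicate 2. With library totals in place of TMM the calls were 2423 higher and 3776 lower, against 3136 and 3047. Of the 37 members, 5 were higher and 15 lower in replicate 2. A difference of at least 1.5-fold was called higher in 3.93% and lower in 8.32% of all genes, and in 0 and 2 members. The members were Qars and Rars.

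Qars had 2263 and 823 counts, a log2 difference of −0.99 (adjusted p = 4.3e-69, exact binomial test, Benjamini-Hochberg). Much of it lay in Qars-212, the retained-intron transcript, which had 1337 and 332 counts. On its protein-coding transcripts alone Qars had 737 and 379 counts and a difference of −0.49. Rars had 384 and 184 counts, a difference of −0.60 (adjusted p = 8.1e-06 by the same exact test), and −0.61 on protein-coding transcripts. Smaller called differences were −0.53 for Dars and −0.51 for Lars2, and on the higher side 0.30 for Iars2 and 0.29 for Gars.

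The genes of the complex shared a direction. All 8 of its enzymes were called lower in replicate 2, from −0.15 for Mars to −0.99 for Qars with a median of −0.37, beside 29.2% of all genes. The scaffold genes Aimp1 (−0.71), Aimp2 (−0.19) and Eef1e1 (−0.58) were also all called lower. Outside the complex, 3 of 12 cytosolic members were higher and 5 lower, with a median of −0.05, and among 17 mitochondrial members 2 were higher and 2 lower. With library totals these became 1 higher and 8 lower outside the complex and 2 higher and 6 lower among mitochondrial members. On protein-coding transcripts the mitochondrial members were 1 higher and 5 lower, with Ears2 at −1.53 and Yars2 at 45 against 16 counts. The 3 higher cytosolic members were Gars, Wars and Vars, and with library totals the difference of Vars was −0.0081 and neither Vars nor Wars was called. For the complex, the counts of calls were the same with library totals, with DESeq2 size factors and with either other count minimum. At 1.5-fold, 2 of the 8 were called. On protein-coding transcripts alone 7 were lower and Mars, with 415 and 446 counts, was higher by 0.57.

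Other measures moved with the same libraries. Of 81 cytosolic ribosomal protein genes tested, 65 were called lower in replicate 2 and 8 higher, with a median of −0.40, and 4 of 5 cytosolic elongation factor genes were lower. Of 77 mitochondrial ribosomal protein genes, 27 were higher and 26 lower. Across 9532 protein-coding genes the library difference rose with transcript GC content (Spearman 0.25). Among 4397 genes within the GC range of the complex enzymes (44.3% to 53.3%), 34.0% were called lower, with a median of −0.05. The myeloid granule genes Mpo, Prtn3 and Elane had 32, 3 and 2 counts in replicate 1 and 507, 181 and 130 in replicate 2. Other marker lists moved as well. The 4 megakaryocyte markers summed to 4.50 and 6.78 TPM in replicates 1 and 2, and the 4 lymphoid markers to 0.55 and 0.09 TPM. Whether any of these had a part in the synthetase differences was not tested.

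**Figure D5:**
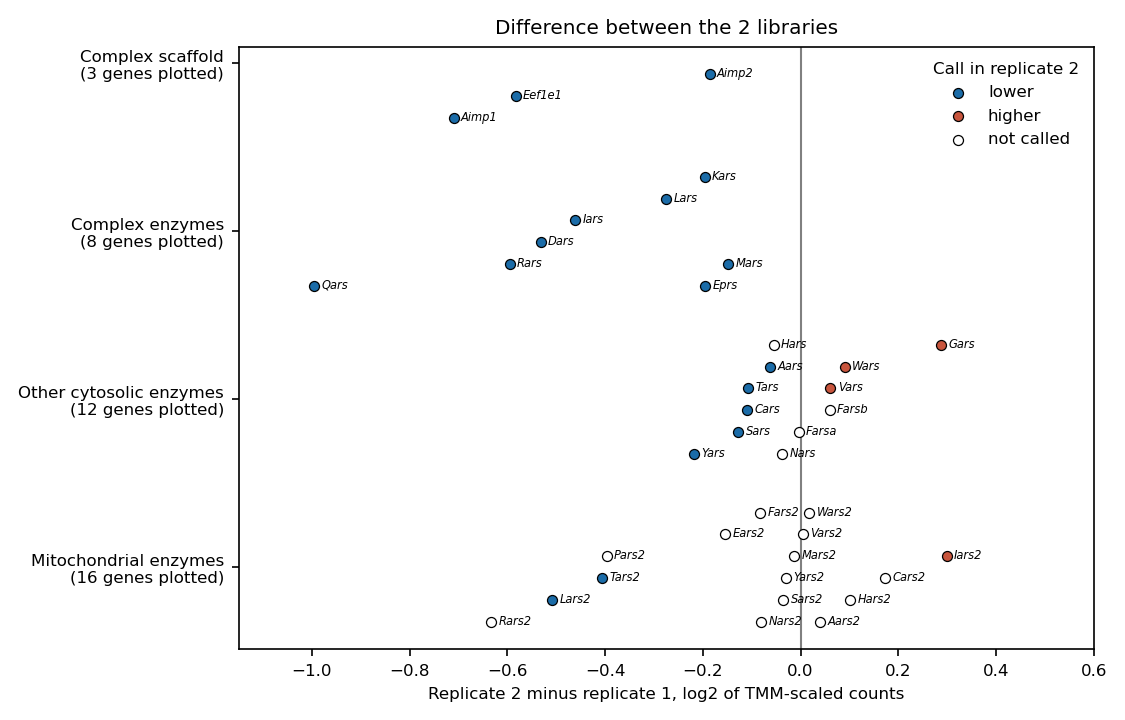
Log2 difference of TMM-scaled counts, replicate 2 minus replicate 1, for the complex scaffold, the complex enzymes, the other cytosolic enzymes and the mitochondrial enzymes, with colour for the exact binomial call and vertical offsets for legibility only. The scaffold and complex points all lie left of 0, from −0.15 to −0.99, while the other groups lie on both sides.

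Genes that work beside the synthetases reached at least 1 TPM in 12 of 15 cases and at least 10 TPM in 5. The median of these charging factors was 5.65 TPM. Aimp2, a scaffold of the complex, led with 88.2 and 75.3 TPM, while its partner Aimp1 had 3.23 and 1.89 TPM and Eef1e1 5.48 and 3.51 TPM. Pstk, which prepares the selenocysteine tRNA, had 24.3 and 28.6 TPM, and Sepsecs, which completes that step, had 0.76 and 0.51 TPM. Aarsd1, an editing protein, had 24.0 and 17.8 TPM, and Tarsl2, a second threonine enzyme outside the symbol rule, 13.7 and 13.6 TPM. Mtfmt, which formylates the mitochondrial initiator tRNA, had 5.05 and 6.92 TPM. The proofreading enzymes Dtd1 and Dtd2 had 3.39 and 3.70 TPM and 7.17 and 7.34 TPM, and the tRNA exporter Xpot had 1304 and 1007 counts. Of the 15, 1 was called higher in replicate 2 (Mtfmt, 0.40) and 8 lower, beside 30.0% and 29.2% of all genes. The largest difference was that of Prorsd1, which had 544 and 105 counts (−1.90) and 9.00 and 2.29 TPM.

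Other ATF4 targets spanned a wide range, with a median of 17.5 TPM over 12 genes against 31.4 TPM for the 12 ATF4-linked synthetases. Atf5 had 538 and 556 TPM, Ddit3 156 and 147 TPM, and the amino acid transporter subunit Slc3a2 39.6 and 42.2 TPM. Vldlr was the lowest of the 12, with 1 and 3 counts. Of the 9 tested, 5 were higher in replicate 2 and 2 lower, with a median of 0.11. Of the 12 ATF4-linked synthetases 2 were higher and 9 lower, with a median of −0.12. The 8 cytosolic synthetases outside the ATF4 list had a similar median of −0.13, with 1 higher and 4 lower. All genes gave 30.0% higher and 29.2% lower. The median GC content was 55.9% for the other ATF4 targets and 51.4% for the ATF4-linked synthetases. Over the protein-coding genes tested, the library difference rose with GC content. Its part here was not tested. In the rest of the translation apparatus, the median was 87.9 TPM for 84 cytosolic ribosomal protein genes and 24.0 TPM for 77 mitochondrial ones. The medians were 103 TPM for 5 cytosolic elongation factors and 4.01 TPM for 9 mitochondrial translation factors. The synthetases of both compartments thus had lower medians than the ribosomal protein genes of the same compartment, 31.4 and 4.94 TPM. Expressed protein-coding genes had a median of 15.4 TPM.

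In the genome, 10 of the 37 members (27.0%) start within 1000 bases of another protein-coding gene on the opposite strand, beside 10.8% of 22028 protein-coding genes. Hars and Hars2 are each other's neighbour, so the 10 make 9 gene pairs. Sars2 lies 172 bases from Mrps12, which encodes a protein of the mitochondrial ribosome and had 276 and 315 TPM, against 20.8 and 19.4 TPM for Sars2. Kars starts 75 bases from Terf2ip, a telomere protein gene with 7.57 and 7.76 TPM. Rars2 lies 13 bases from Orc3, a subunit of the origin recognition complex (1.43 and 0.84 TPM). Yars is paired with S100pbp, 33 bases away. The starts of Ears2, Fars2 and Wars overlap those of Ubfd1, Lyrm4 and Wdr25. Reads in such overlaps cannot be assigned to either gene without a strand setting, which these sources do not state.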

How the data were processed

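Poly(A) RNA of 2 libraries of 1 group was measured. Per the deposited description files, values refer to mm10 and GENCODE M4. Names of the aligner and quantifier, and any strand setting, were not given in the sources used here. Values deposited by the authors were expected counts (estimated fragments per gene or transcript, per the file headers), TPM and FPKM (length-corrected abundances, per the file headers) and the percent of a gene's TPM in each transcript. Names, types, positions and GC content came from GENCODE M21, which matched 42462 of 43346 gene entries, and another 26345 entries without a gene identifier held 5 and 4 counts and were left out. Promoters came from RefSeq (GRCm38.p6).

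Members, lists and tests were chosen with earlier results of these data known. All charging factors and all members but 1 were named. That member enters the counts and medians, and it, a marker gene and a promoter sequence are not reported here or plotted. Other lists give their 3 highest or their lowest gene, or genes set beside a result. Library differences name members past 1.5-fold and the largest in each direction, and transcripts and neighbouring genes were named after their values were seen.

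Levels were compared on log2(TPM + 1). Libraries were compared on rounded expected counts (35 of 37 members whole within 0.005) with an exact binomial test at totals scaled by TMM (edgeR 4.0.16). Genes needed 20 summed counts or more, and an adjusted p under 0.05 was a call. With 2 libraries no spread enters, and the labels do not say how the cultures were separated. On simulated counts over 10371 genes the test recovered 100% of 50 genes for a fold of 2, 100% for 0.5, 74% for 1.25 and 70% for 0.8, and it called 0.0688% of genes simulated without a difference. The simulation held counting noise alone, as the test assumes, so that share is no error rate for the real libraries. DESeq2 1.42.0, R 4.3.3, Python 3.11.15, scipy 1.17.1, statsmodels 0.14.6 and pandas 2.3.3 were used.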

Additional observations from a re-analysis of the deposited data

How the results depend on the processing

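Pair counts, member counts and signs of the compartment difference stayed within 1.5 times or 1 SD of the reported values in the settings run, except as follows. Requiring 1.5-fold cut the library calls from 6183 genes to 1279 and from 20 members to 2. The median pair difference of 1.48 became 1.77 with a pseudocount of 0.1 TPM, 2.50 after GC adjustment and 1.64 with counts over the longest coding transcript. The difference of the compartments' median log2 levels, 2.43 ± 0.03 (n = 2), became 2.63 with the smaller pseudocount and 1.69 without members under 1 TPM. It was 2.12 after GC adjustment, 2.49 with globin and mitochondrially encoded genes removed from the sum, 2.20 on protein-coding transcripts and 2.31 over the longest one. The median leading-transcript share of 95.2% became 93.0% by counts and 91.0% by posterior means. Called differences that reversed were Vars, 0.06 to −0.0081 with library totals, and Mars, −0.15 to 0.57 on protein-coding transcripts. Uncalled differences that changed sign were Aars2 (−0.03), Farsb (−0.010), Vars2 (−0.06) and Wars2 (−0.05) with library totals, Farsa (0.03), Vars2 (−0.05) and Wars2 (−0.49, then called) on protein-coding transcripts, and Farsa (0.0077) with DESeq2 size factors. Leaving out either replicate gave 1.44 to 1.52 for the pair median and 2.41 to 2.45 for the compartment difference. The settings on protein-coding transcripts and on the longest one were chosen after seeing the data. No paired analysis was possible because there was 1 group.

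Depth limits Rars2 and Wars2, and 2 libraries leave the spread between cultures poorly known. A count of 0 allows up to 3 counts, and such limits cover counting error only.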
